A study of Mus musculus with 8 samples.

Results

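The transforming growth factor beta (TGF-beta) activation and signaling genes are 10 genes that were taken by symbol from the 32227 genes of the deposited tables. Tgfb1 encodes the ligand, Nrros, Itgav and Itgb5 encode proteins that hold or release it, Tgfbr1, Tgfbr2 and Eng encode receptors, and Smad3, Smad7 and Ski encode the mediator and its inhibitors. Each symbol matched 1 Ensembl identifier that is given with the gene below. They were followed in microglia and in 8 other cell types of the mouse brain and its vessels.

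The study asked how immune cells in and around the brain respond to endotoxin given in the periphery. Male C57Bl/6J mice, 5 to 6 months old by the labels (the methods give another range), received 1 intraperitoneal dose of saline or of lipopolysaccharide (LPS, the endotoxin of Gram-negative bacteria) at 15000000 EU/kg, and brains were taken 24 hours later. Brains were not perfused, so cells within vessels are included. Dissociation took place with dimethyl sulfoxide (DMSO) alone or with the inhibitors actinomycin D, triptolide and anisomycin, which block transcription and translation, and CD45+ cells (CD45 is a surface protein of leukocytes) were enriched on magnetic beads. The 8 mice gave 8 PIPseq libraries, a droplet method that forms its partitions without microfluidics. Saline with DMSO, saline with inhibitors, LPS with DMSO and LPS with inhibitors each had 2 mice, 1 in each of 2 capture batches, so 4 saline libraries were set against 4 LPS libraries. Values are given in that order of groups, with replicate 1 before replicate 2.

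TGF-beta1 is secreted in a latent complex, in which its own propeptide cages the growth factor. NRROS, also known as LRRC33, anchors this complex on the surface of microglia and other myeloid cells, and integrins that contain the alpha-v chain, the product of Itgav, can pull the propeptide open. The free ligand binds TGFBR2, which then phosphorylates TGFBR1. TGFBR1 in turn phosphorylates SMAD2 and SMAD3, which enter the nucleus with SMAD4. SMAD7 blocks the activated receptor and is itself a target of the pathway, SKI represses transcription together with the Smads, and endoglin, the product of Eng, is a co-receptor best known from vascular endothelium. In the adult brain, microglia depend on TGF-beta signaling for the expression of many of the genes that distinguish them from other macrophages.

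RefSeq promoter windows on GRCm38.p6 were found for 9 of the members, 10 windows in all, and the 250 bases upstream of the start site were searched on both strands for 3 motifs tied to the pathway, the myeloid lineage or housekeeping promoters. Of the windows below, those of Tgfbr1 and Nrros bracket the LPS response of microglia described next. Tgfbr1 had the most negative fold change, and Nrros did not pass the test. Eng and Itgav, with fold changes between these, are also the only 2 members with a match to the PU.1 motif, so the windows are no neutral sample. Capitals mark the matches, GGGCGG (a GC box, bound by Sp1 and related factors) in Tgfbr1 and GAGGAAGT (the core bound by PU.1, a factor that defines the myeloid lineage) in Eng and Itgav, where both matches lie on the other strand and so read ACTTCCTC, and no matches overlapped. Each run ends at the base before the start site.
Tgfbr1, chr4:47352972-47353221, plus strand: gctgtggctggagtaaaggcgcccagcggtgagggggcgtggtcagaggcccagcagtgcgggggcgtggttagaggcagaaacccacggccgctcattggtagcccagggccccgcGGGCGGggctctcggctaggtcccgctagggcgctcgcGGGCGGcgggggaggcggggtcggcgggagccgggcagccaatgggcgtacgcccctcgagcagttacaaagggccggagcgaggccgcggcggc
Eng, chr2:32646345-32646594, plus strand: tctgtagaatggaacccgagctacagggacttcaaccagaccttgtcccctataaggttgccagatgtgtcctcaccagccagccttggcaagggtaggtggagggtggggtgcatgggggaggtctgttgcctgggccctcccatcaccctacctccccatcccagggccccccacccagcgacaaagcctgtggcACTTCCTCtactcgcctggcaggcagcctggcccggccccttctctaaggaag
Itgav, chr2:83724147-83724396, plus strand: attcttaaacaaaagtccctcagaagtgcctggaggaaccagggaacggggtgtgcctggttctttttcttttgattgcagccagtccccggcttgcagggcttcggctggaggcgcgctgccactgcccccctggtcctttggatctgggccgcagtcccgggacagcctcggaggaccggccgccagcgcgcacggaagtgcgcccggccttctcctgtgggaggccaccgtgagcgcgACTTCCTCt
Nrros, chr16:32165595-32165844, minus strand: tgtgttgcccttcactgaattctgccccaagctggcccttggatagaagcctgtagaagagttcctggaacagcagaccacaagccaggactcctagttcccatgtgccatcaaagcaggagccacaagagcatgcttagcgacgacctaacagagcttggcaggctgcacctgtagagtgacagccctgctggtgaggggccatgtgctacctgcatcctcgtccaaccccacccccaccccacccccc
GAGGAAGT lay -53 to -46 bases from the start site in Eng and -9 to -2 bases from it in Itgav. It was present in 2 of the members with a window and in 2.44% of the 32851 promoters in the table. GGGCGG was present in 5 of the 10 windows (Tgfb1, Itgb5, Smad3, Ski and the window of Tgfbr1 shown) and in 32.7% of all promoters. The table holds a second start site of Tgfbr1, whose window at chr4:47385966-47386215 had 0 matches to any of the motifs. The palindrome GTCTAGAC, to which Smad proteins bind, was present in 0.167% of all promoters and in none of the members' windows. These matches describe the letters of the windows and were not tested against the expression values.

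The deposited counts are unique molecular identifiers (UMIs), that is, counts of captured RNA molecules, and summed to between 90352359 and 141182123 per library. Barcodes with 1 to 99 UMIs, which hold free RNA rather than cells, took between 15.5% and 33.7% of them. Between 12039 and 17364 cells per library had at least 800 and under 45000 UMIs, at least 250 and under 6500 genes and under 5% mitochondrial counts, and 115 barcodes occurred in more than 1 library. Marker genes placed 91274 of the 119053 cells in microglia, between 8956 and 13563 per library, and fewer in macrophages (4940 cells), monocytes (5520), neutrophils (1866), dendritic cells (416), B-cells (1155), T-cells (912), NK cells (366) and endothelial cells (1329). The marker list that defined microglia itself fell after LPS, from a summed level of 36450 to 37500 UMIs per 1000000 (CPM) to 7067 to 8269 CPM, and cells without enough markers of any type numbered 822 after saline and 3567 after LPS. The macrophage list also fell in cells gated as macrophages, from 12080 to 13450 CPM after saline to 4409 to 5205 CPM after LPS. The dendritic list rose in cells gated as dendritic, from 2667 to 3791 CPM to 7245 to 9849 CPM. The part of cells without enough markers, and of these shifts, in the results was not tested. Cells that are no leukocytes, such as endothelial and choroid plexus cells (1624), were thus present in the CD45 preparation. Levels below are CPM of the UMIs of 1 cell type in 1 library. Since the counts are not scaled by transcript length, levels are compared between cells and not between genes.

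In microglia, 9 of the 10 members fell after LPS by the quasi-likelihood test of edgeR, and Nrros did not pass it. Lower calls made up 31.9% of the 22337 genes tested in microglia and calls in either direction 59.6%. The members' median log2 fold change was -1.60, against -0.22 for all genes. The members were chosen with earlier results of these data known. Setting their counts and median beside all genes, here and below, is therefore a description and not a test. The LPS libraries lay below all saline libraries in CPM for every member, as they did for 58.4% of genes with a mean of at least 10 UMIs per library.

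Among the genes of the ligand and its activation, Tgfb1 (ENSMUSG00000002603) stood at 160.3, 142, 153 and 142 CPM after saline and at 44.1, 33.9, 50.4 and 45.9 CPM after LPS. The groups did not overlap, and the gene fell (log2 fold change -1.02, SE 0.12, edgeR adjusted p = 7.72e-06). Itgb5 (ENSMUSG00000022817), the beta-5 chain that pairs with alpha-v, gave 1047, 1387, 1291 and 1344 CPM after saline and 147, 205, 160.1 and 98.6 CPM after LPS. Its mean went from 1267 ± 152 to 153 ± 43.9 CPM (SD, n = 4 each), and it fell (log2 fold change -2.34, SE 0.21, edgeR adjusted p = 6.59e-07). For Itgav (ENSMUSG00000027087) the saline libraries lay between 227 and 255 CPM and the LPS libraries between 36.6 and 58.4 CPM, and it fell as well (log2 fold change -1.61, SE 0.12, edgeR adjusted p = 1.13e-07).

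Nrros (ENSMUSG00000052384) was the exception. Its saline libraries held 119.8, 149, 119 and 141 CPM and its LPS libraries 77.1, 89.3, 78.7 and 61.4 CPM, so that the LPS libraries were lower on this scale, yet the fitted change was near 0 (log2 fold change -0.053, SE 0.15, edgeR adjusted p = 0.771, 95% interval -0.37 to 0.26). The result for Nrros depended on the scale. LPS microglia held 5475 ± 383 UMIs per cell (mean ± SD over 4 libraries) and saline microglia 2839 ± 504, and the TMM factors of edgeR, which correct library totals for composition, differed by a mean of -0.759 (LPS minus saline, log2), which raises the fitted LPS levels. Scaling by library totals without these factors moved the median of all genes from -0.22 to -0.99, changed the split of calls in all genes from 6191 higher and 7133 lower to 2886 higher and 14930 lower, and gave Nrros a fall of 0.79 with an edgeR adjusted p of 7.01e-05. Counted per cell, Nrros stood at 388, 359.5, 394 and 338 UMIs per 1000 microglia after saline and 426, 463, 408 and 368 after LPS. The other 9 members were lower after LPS on all of these scales.

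Among the receptors, Tgfbr1 fell more than any other member. Tgfbr1 (ENSMUSG00000007613) measured 1741, 1526, 1625 and 1395 CPM after saline and 126, 119.6, 145 and 98.6 CPM after LPS, which is 5637, 3671, 5381 and 3349 against 699, 621, 754 and 591 UMIs per 1000 cells (log2 fold change -2.93, SE 0.14, edgeR adjusted p = 3.09e-09). Tgfbr2 (ENSMUSG00000032440) measured 554, 506, 496 and 473 CPM after saline and 93.9, 75.1, 111 and 74.3 CPM after LPS (log2 fold change -1.77, SE 0.14, edgeR adjusted p = 1.48e-07). Both components of the signaling receptor were therefore lower in each of the 4 LPS libraries than in any saline library. Eng (ENSMUSG00000026814) went from 134 ± 5.62 to 32.5 ± 3.24 CPM (log2 fold change -1.29, SE 0.12, edgeR adjusted p = 7.06e-07).

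The receptors were also followed cell by cell at a fixed depth. After each microglial cell had been thinned to 800 UMIs, 68.5 ± 3.15% of saline microglia and 9.49 ± 1.33% of LPS microglia held a UMI of Tgfbr1 (mean ± SD of 4 libraries), and 23.1 ± 1.88% and 0.852 ± 0.204% held UMIs of both Tgfbr1 and Tgfbr2. Without thinning, the shares with both were 65.1 ± 7.15% and 17.1 ± 3.13%, from cells with median depths of 2650 and 5065 UMIs. In B-cells, where the level of Tgfbr1 was close to what microglial RNA carried over would give (below), the thinned share with Tgfbr1 was 8.02% of 1023 saline cells (median depth 1808 UMIs) and 0.758% of 132 LPS cells (median depth 1976 UMIs). The thinned shares for Nrros were 9.88 ± 1.13% and 6.19 ± 0.985%, and for Smad3 7.05 ± 0.703% and 0.915 ± 0.246%. Without thinning they were 27.7 ± 1.05% after saline and 31.0 ± 2.43% after LPS for Nrros, and 21.4 ± 4.76% and 5.38 ± 0.844% for Smad3. Thinning gives every cell the same total, as library totals do, so the direction for Nrros depended on the scale here too.

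Smad3, Smad7 and Ski, which act inside the cell, fell too. Smad3 (ENSMUSG00000032402) measured 99.4, 85.8, 101 and 80.5 CPM after saline and 12.7, 11.1, 11.3 and 8.11 CPM after LPS (log2 fold change -2.33, SE 0.11, edgeR adjusted p = 1.74e-09), and no LPS library came near the saline range. Smad7 (ENSMUSG00000025880), which restrains the pathway and is induced by it, went from 113 ± 20.5 to 22.6 ± 6.08 CPM (log2 fold change -1.59, SE 0.12, edgeR adjusted p = 1.32e-07). Ski (ENSMUSG00000029050), the co-repressor, had the smallest fold change among the members called, from 315 ± 27.5 to 103 ± 22.2 CPM (log2 fold change -0.86, SE 0.13, edgeR adjusted p = 7.96e-05).

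**Figure D1:**
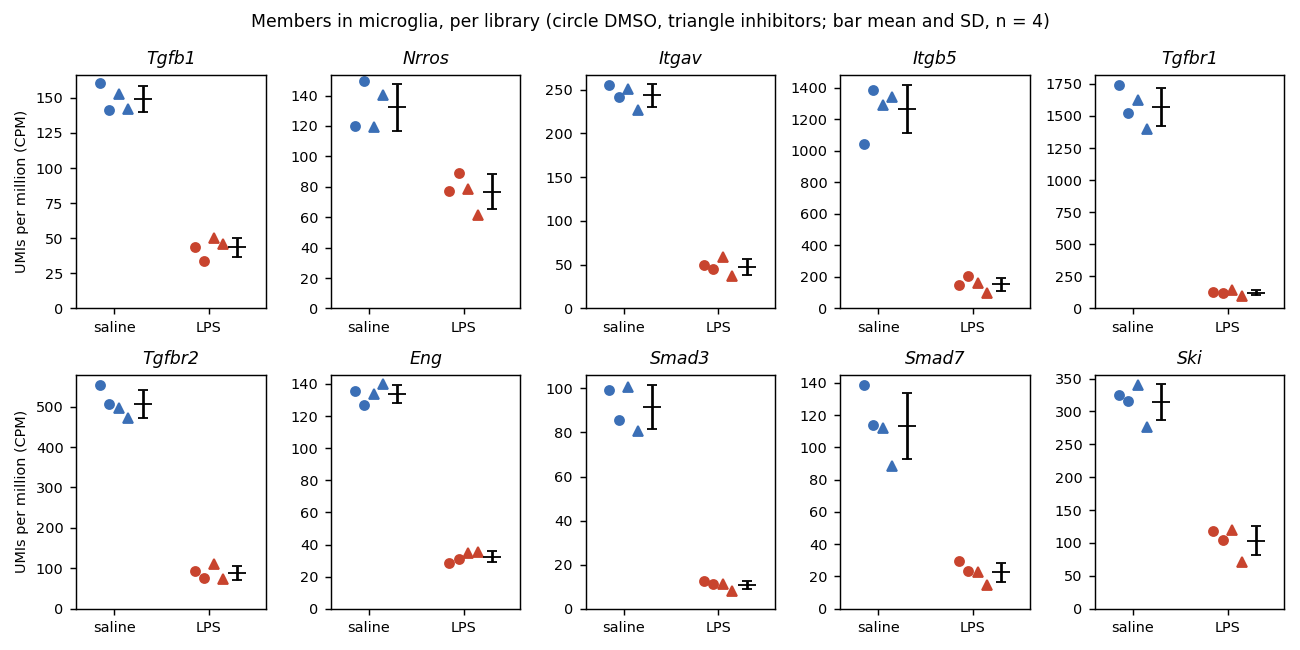
CPM (UMIs of the gene per 1000000 UMIs of microglia) of the 10 members in each library, with saline in blue and LPS in red, circles for DMSO and triangles for inhibitors, and the mean and SD of 4 libraries beside them on axes that start at 0. The LPS libraries of Tgfbr1 sit between 98.6 and 145 CPM, below saline libraries between 1395 and 1741 CPM, whereas for Nrros the highest LPS library (89.3 CPM) and the lowest saline library (119 CPM) lie closer together.

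Macrophages (cells with markers such as Mrc1, Cd163 and Lyve1, which mark macrophages at the borders of the brain) showed a fall of all 10 members after LPS, where 25.1% of the 10979 genes tested were called lower. Their own marker list was lower after LPS too (above), and the part of a change in which cells passed the gate was not tested. All LPS libraries lay below all saline libraries for every member, as for 36.7% of genes with a mean of at least 10 UMIs. Nrros, which did not pass in microglia, stood at 342, 288, 346 and 275 CPM in the saline macrophages and 98.7, 95.7, 83.2 and 74.3 CPM in the LPS macrophages (log2 fold change -1.46, SE 0.14, edgeR adjusted p = 2.00e-07). The groups did not overlap, and macrophages held about the same number of UMIs per cell after saline (2613 ± 449) and LPS (2645 ± 182). Tgfbr2 gave 449, 482, 483 and 450 CPM after saline and 67.6, 58.9, 89.3 and 61.1 CPM after LPS, the largest fall in these cells (log2 fold change -2.39, SE 0.15, edgeR adjusted p = 1.17e-09). Itgb5 (-2.37) and Tgfbr1 (-1.94) followed on the log2 scale, and the other members fell by between 0.73 (Eng) and 1.28 (Smad7).

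RNA of genes known from microglia was also present in the cells gated as macrophages. Expression of these genes by the macrophages themselves was not tested, and the values of carry-over take all of it as microglial RNA. Genes known from microglia and held out from the gate (Olfml3, Siglech, Gpr34, Sall1, Golm1 and Crybb1) reached 12.4 to 13.2% of their microglial level in saline macrophages and 7.60 to 10.8% in LPS macrophages. Such RNA carried over would give 199 of the 317 CPM of Tgfbr1 in saline macrophages and 159 of the 375 CPM of Itgb5, but only 16.6 of the 313 CPM of Nrros and 64.01 of the 466 CPM of Tgfbr2. When free RNA was subtracted, Eng and Smad7 no longer fell in macrophages (log2 fold change 0.75, edgeR adjusted p = 0.121, and 0.52, edgeR adjusted p = 0.584), Smad3 missed the threshold (-0.35, edgeR adjusted p = 0.490), and the other 7 members kept their calls. Among these the fold change of Tgfbr1 went from -1.94 to -0.98 and that of Itgav from -0.84 to -0.44 (edgeR adjusted p = 0.0447).

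Monocytes (937 cells after saline and 4583 after LPS) showed a fall of 6 of 10 members beside 13.9% of 12754 genes called lower. These were Tgfbr1 (-2.34 on the log2 scale), Itgb5 (-1.97), Tgfbr2 (-1.07), Smad7 (-0.87), Ski (-0.79) and Nrros (-0.59). Itgb5 stood at 99.3 CPM in saline monocytes, where carry-over would give 67.5 CPM, and Tgfbr1 at 166 CPM, where it would give 85.8 CPM. The ligand itself held 116, 123, 159 and 157 CPM in saline monocytes and 102, 98.2, 125 and 93.7 CPM in LPS monocytes, and the groups overlapped (log2 fold change -0.30, SE 0.17, edgeR adjusted p = 0.219). The calls of Nrros and Smad7 in monocytes were each lost in 6 of the 8 fits that left out 1 library. That of Nrros remained only without the first saline DMSO or the second LPS DMSO library, and missed by most without the second saline inhibitor library (-0.48, edgeR adjusted p = 0.158). That of Smad7 remained only without the second saline DMSO or the second saline inhibitor library, and missed by most without the first saline DMSO library (-0.56, edgeR adjusted p = 0.147).

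In neutrophils, Tgfb1, Itgav, Itgb5 and Tgfbr1 fell out of 9 members tested (12.4% of 7514 genes were called lower), and the call of Tgfb1 (log2 fold change -0.89, SE 0.29, edgeR adjusted p = 0.0316) was lost in 7 of the 8 fits without 1 library (all but the first LPS DMSO library, log2 fold changes -0.91 to -0.65, edgeR adjusted p = 0.0619 to 0.198) and that of Itgav in 5 (without either LPS inhibitor library, either saline inhibitor library or the second saline DMSO library, -1.08 to -0.71, edgeR adjusted p = 0.0527 to 0.129). Itgb5 in saline neutrophils, at 99.6 ± 54.6 CPM, stood no higher than the 115 CPM that RNA carried over from microglia would give, and Tgfbr1 there, at 171 ± 62.3 CPM, lay near its carry-over of 139.7 CPM. Dendritic cells, with 22 to 109 cells per library, allowed a test of 6 members, of which Tgfb1, Itgb5, Tgfbr1 and Tgfbr2 fell (16.7% of 3009 genes). Tgfb1 there went from 112, 41.5, 78.1 and 65.04 CPM to 3.02, 24.8, 13.4 and 10.4 CPM, values that rest on 36 and 8 UMIs in all (log2 fold change -2.66, SE 0.66, edgeR adjusted p = 0.00336). Itgb5 in saline dendritic cells (75.4 CPM) lay near its carry-over (62.6 CPM), and Tgfbr1 (172 CPM) above it (78.1 CPM). Nrros in dendritic cells stood at 164 ± 100.3 CPM after saline and 164 ± 19.95 CPM after LPS (log2 fold change 0.027, SE 0.34, edgeR adjusted p = 0.956), and its saline libraries spread widely, between 83.0 and 289.6 CPM. Of the 4 calls, that of Tgfbr2 was lost in 5 of the 8 fits without 1 library (either saline DMSO library, the first saline inhibitor library, the second LPS DMSO library or the first LPS inhibitor library, -1.53 to -1.14, edgeR adjusted p = 0.0654 to 0.313) and that of Itgb5 in 3 (the first LPS DMSO, the first saline inhibitor or the second saline DMSO library, -2.33 to -1.57, edgeR adjusted p = 0.0720 to 0.104).

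Lymphocytes held few UMIs of most members. In T-cells, 5 of the 8 members tested fell (10.3% of 5121 genes), among them Smad7, whose saline libraries at 69.4, 65.8, 81.01 and 54.6 CPM all lay above the LPS libraries at 18.1, 5.55, 20.7 and 10.4 CPM (log2 fold change -2.10, SE 0.39, edgeR adjusted p = 2.27e-04). Carry-over from microglia would give 10.1 CPM of Smad7 in saline T-cells. The other calls in T-cells were Nrros (-1.44 on the log2 scale, lost without the first LPS DMSO library, edgeR adjusted p = 0.0563), Tgfbr2 (-0.84, lost without any of 5 libraries, both LPS DMSO, the second saline DMSO, the second saline inhibitor and the second LPS inhibitor library, -0.89 to -0.53, edgeR adjusted p = 0.0641 to 0.274), Tgfbr1 and Itgb5. In B-cells 2 of 6 members fell (4.57% of 3851 genes), Tgfbr1 and Itgb5, and in NK cells Tgfbr1 and Itgb5 fell out of 3 tested (11.6% of 2594 genes). Tgfbr1 had 281 UMIs after saline and 6 after LPS in B-cells, and 41 and 14 in NK cells. Itgb5 had 195 and 0 in B-cells. A member that passes the filter for low counts through its saline libraries can hardly be called other than lower. The direction of these calls, and of Tgfb1 in dendritic cells, is therefore no support for a fall by itself. The call of Itgb5 in NK cells, from 26 UMIs after saline and 9 after LPS, was lost without the first LPS DMSO, second saline DMSO, second saline inhibitor or second LPS inhibitor library (-2.23 to -2.07, edgeR adjusted p = 0.0617 to 0.133). In B-cells 2 members were called in single fits without 1 library, Tgfbr2 without the first saline DMSO or first LPS DMSO library (-1.66 to -1.20, edgeR adjusted p = 0.0253 to 0.0496) and Ski without the second LPS inhibitor library (log2 fold change -6.88, edgeR adjusted p = 0.0353), which then left Ski without a UMI in LPS B-cells.

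These calls of Tgfbr1 and Itgb5 in lymphocytes stood at the level of microglial carry-over. Saline B-cells held 69.95 ± 13.3 CPM of Itgb5, where carry-over would give 63.4 CPM, while 0 UMIs of it were found in 132 LPS B-cells, where a count of 0 allows up to 3. Saline T-cells held 127 ± 22.2 CPM, where carry-over would give 109 CPM. For Tgfbr1 the saline levels were 106 CPM in B-cells, 169 CPM in T-cells and 101 CPM in NK cells, beside 80.1, 138 and 71.9 CPM of carry-over. Microglial RNA of these genes itself fell after LPS, so own expression and carry-over cannot be told apart for them in lymphocytes, neutrophils and endothelial cells, or for Itgb5 in dendritic cells. Over the 8 types other than microglia the saline level was 1.22 to 2.201 times the carry-over for Tgfbr1 and 0.87 to 2.35 times for Itgb5. Over the 8 types other than microglia, 38 pairs of member and type passed the test (37 lower and 1 higher), and 17 did after subtraction of free RNA, where fewer pairs could be tested. Before subtraction, lower calls made up 4.57% (B-cells) to 25.1% (macrophages) of all genes tested in a type. Higher calls made up 3.22% (B-cells) to 24.3% (macrophages). Shares of all genes after subtraction are not given, so the 17 cannot be set against them. Of these 38 calls, 17 were kept, 12 were lost and 9 had too few UMIs left for a test. Outside macrophages the calls kept were those of Tgfbr1, Itgb5, Ski and Nrros in monocytes, Tgfbr1 in dendritic cells, Itgb5 and Smad7 in T-cells, and Tgfb1, Smad7 and Ski in endothelial cells. That of Itgb5 in T-cells went from -3.88 to -6.69 on the log2 scale (edgeR adjusted p = 0.0219). It rests on 6 UMIs in LPS T-cells, 7.96 CPM beside a carry-over of 13.9 CPM, so the limit stated above for lymphocytes also covers it. Among the calls lost outside macrophages, the log2 fold change shrank for Tgfbr1 in neutrophils (-1.94 to -0.44) and endothelial cells (-1.65 to -0.10), for Tgfbr2 in monocytes (-1.07 to -0.69, edgeR adjusted p = 0.0506) and T-cells (-0.84 to -0.48), and for Smad7 in monocytes (-0.87 to -0.67). It stayed about as large, while the test no longer passed, for Tgfb1 (-0.89 to -0.88) and Itgav (-1.14 to -1.03) in neutrophils, Tgfbr2 in dendritic cells (-1.54 to -1.55) and Nrros in T-cells (-1.44 to -1.60, edgeR adjusted p = 0.0568). The pairs that could not be tested were Tgfb1 in dendritic cells, Tgfbr1 in all lymphocytes, and Itgb5 in neutrophils, dendritic cells, B-cells, NK cells and endothelial cells, which include all calls in B-cells and NK cells.

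Endothelial cells, which line the vessels and were carried along in the CD45 preparation, gave the only rise. Tgfb1 measured 40.8, 42.2, 52.1 and 34.5 CPM after saline and 57.8, 54.9, 59.3 and 55.4 CPM after LPS, all LPS libraries above all saline libraries (log2 fold change 0.66, SE 0.19, edgeR adjusted p = 0.00915), where 20.2% of the 10094 genes tested rose. Scaling by library totals took this call away (log2 fold change 0.42, edgeR adjusted p = 0.106). Smad7 fell in the same cells, from 142, 112, 145 and 133 CPM to 57.8, 41.6, 52.3 and 34.9 CPM (log2 fold change -1.25, SE 0.19, edgeR adjusted p = 3.19e-05), and so did Ski (-0.64), Tgfbr1 (-1.65) and Itgb5 (-1.78), which makes 4 lower beside 20.9% of all genes. The levels of Tgfbr1 and Itgb5 there, 87.1 and 45.8 CPM after saline, lay near their carry-over of 65.2 and 51.9 CPM. Eng, by contrast, held 780.3, 953, 1058 and 993 CPM in saline and 659, 785, 661 and 581 CPM in LPS endothelium, with a carry-over of 5.54 CPM, and missed the threshold (log2 fold change -0.27, SE 0.17, edgeR adjusted p = 0.235). Tgfbr2 did so too (log2 fold change -0.37, SE 0.16, edgeR adjusted p = 0.0721), and passed with the capture batch as a block or with library totals (block -0.37, edgeR adjusted p = 0.0178, totals -0.61, edgeR adjusted p = 0.00524). Eng passed with library totals as well (-0.50, edgeR adjusted p = 0.0161).

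**Figure D2:**
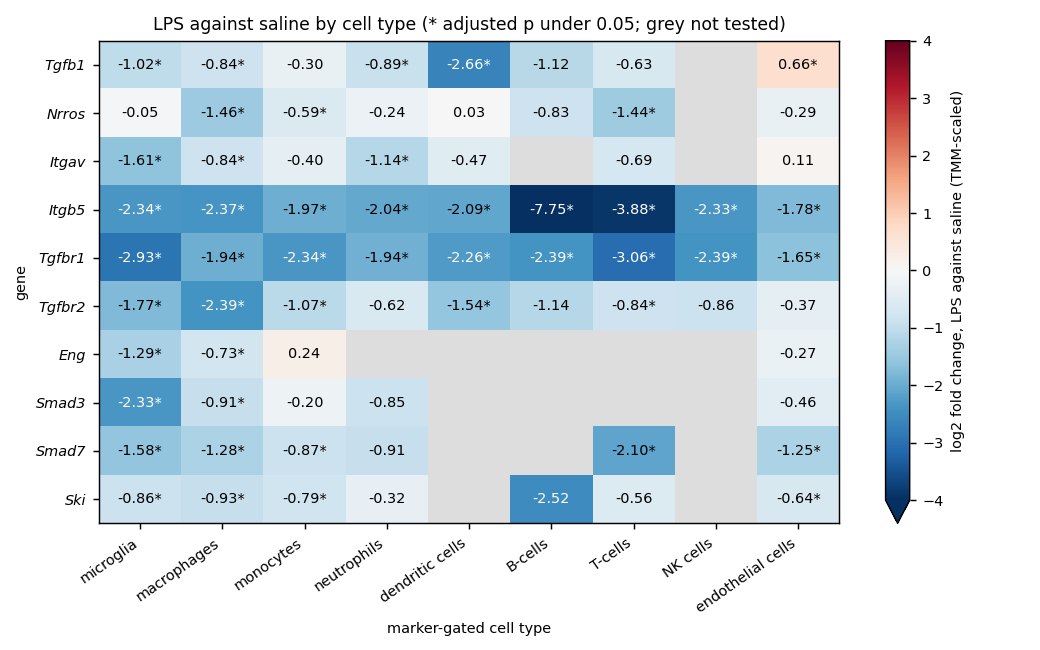
Fitted log2 fold change of LPS against saline (color and printed value, TMM-scaled) for the 10 members (rows) in 9 cell types (columns), with an asterisk where the edgeR adjusted p was under 0.05 and grey where too few UMIs allowed a test. Of the called cells 1 is red, Tgfb1 in endothelial cells, and Tgfbr1 and Itgb5 are called in every column, although outside microglia their saline levels were only 1.22 to 2.201 times (Tgfbr1) and 0.87 to 2.35 times (Itgb5) the carry-over.

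Whether the LPS change differed between microglia and other myeloid cells was tested in 1 fit per pair of types with the mouse as a block. Against macrophages, 6 of 10 members differed, beside 29.1% of all genes. Nrros, which fell in macrophages and had a fitted change near 0 in microglia, had the largest such difference with TMM (log2 difference 1.44, SE 0.13, edgeR adjusted p = 1.23e-16). With library totals the difference of Nrros was 1.05 and that of Smad3, at -1.79, was larger. Tgfbr2 fell more in macrophages than in microglia (log2 difference 0.63, SE 0.12, edgeR adjusted p = 1.39e-05), which did not pass with library totals (0.24, edgeR adjusted p = 0.138). The change was more negative in microglia for Smad3 (log2 difference -1.40, SE 0.25, edgeR adjusted p = 2.24e-06), Tgfbr1 (-0.97), Itgav (-0.74) and Eng (-0.55). The difference of Eng was lost without the first LPS DMSO, second LPS DMSO or first LPS inhibitor library (-0.53 to -0.32, edgeR adjusted p = 0.0745 to 0.392).

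Against monocytes, 7 members had a more negative LPS change in microglia, beside 13.7% of all genes. Smad3 differed most (log2 difference -2.40, SE 0.27, edgeR adjusted p = 4.93e-07): monocytes held 29.1 ± 18.4 CPM of it after saline and 22.9 ± 6.74 CPM after LPS. The other 6 were Eng (-1.78), Itgav (-1.49), Smad7 (-1.01), Tgfb1 (-0.99), Tgfbr2 (-0.97) and Tgfbr1 (-0.90). Against neutrophils 4 members had a more negative change in microglia (6.98% of all genes), Smad3 (-1.77), Tgfbr2 (-1.45), Tgfbr1 (-1.27) and Ski (-0.79), which did not pass without either LPS DMSO library, the first saline DMSO, the second saline inhibitor or the second LPS inhibitor library (-0.82 to -0.53, edgeR adjusted p = 0.0549 to 0.353). Against dendritic cells 3 did (6.02% of all genes), Eng (-2.51), Itgav (-1.63) and Tgfbr1 (-1.23), the last lost without either LPS DMSO library, the second saline inhibitor or the second LPS inhibitor library (-1.26 to -1.06, edgeR adjusted p = 0.0527 to 0.0761). Smad7 against monocytes was lost without the second saline DMSO or second LPS inhibitor library (-0.77 to -0.74, edgeR adjusted p = 0.0507 to 0.0582). For Nrros the difference from monocytes was 0.29 with a 95% interval of -0.13 to 0.71, which did not pass. The part of carry-over from microglia, and of the shifts in marker levels, in these differences was not tested.

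Each member had its own order of levels across cells. In the saline brain, Tgfbr1 and Itgb5 were highest in microglia, whose libraries did not overlap with those of the next type, macrophages. Against macrophages, the fitted difference of levels in the saline libraries was 2.26 for Tgfbr1 and 1.71 for Itgb5 on the log2 scale. Ski (315 CPM) and Smad3 (91.6 CPM) were also highest in microglia without overlap with the next type. Tgfbr2 stood at 507 ± 34.4 CPM in microglia, 466 ± 19.2 CPM in macrophages and 431 ± 64.4 CPM in endothelial cells, neighbours whose libraries overlapped, and its level in microglia and macrophages did not pass the test of a difference (log2 difference 0.077, SE 0.056, edgeR adjusted p = 0.307). Tgfb1 was highest in microglia and monocytes, which overlapped (log2 difference 0.25, SE 0.16, edgeR adjusted p = 0.214). Over the 10 members, 8 were higher in microglia than in macrophages after saline, 1 was lower and 1 did not pass, where 20.9% of all genes were higher and 18.8% lower.

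Nrros had another order. Its level in saline macrophages, 313 ± 36.3 CPM, was the highest mean, did not overlap with monocytes, the next type (199.8 ± 41.04 CPM), and overlapped with dendritic cells through a single library of these at 289.6 CPM, and microglia held less than macrophages (log2 difference -1.30, SE 0.082, edgeR adjusted p = 3.27e-12). After LPS the difference between them did not pass (log2 difference -0.089, SE 0.10, edgeR adjusted p = 0.518, 95% interval -0.29 to 0.11), and dendritic cells were highest with 164 ± 19.95 CPM. Eng was highest in endothelial cells in both groups, above microglia in saline libraries (log2 difference -2.63, SE 0.088, edgeR adjusted p = 8.76e-22, microglia minus endothelial cells) and further above them in LPS libraries (-3.87). Smad7 stood at similar levels in endothelial cells (133 ± 14.96 CPM) and microglia (113 ± 20.5 CPM) after saline, with overlapping libraries.

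After LPS the order changed for several members. Monocytes held the most Tgfb1, with 102, 98.2, 125 and 93.7 CPM in the LPS libraries, all above microglia at 44.1, 33.9, 50.4 and 45.9 CPM (log2 difference -0.76, SE 0.12, edgeR adjusted p = 7.27e-06). Smad3, highest in microglia after saline, was lower in microglia than in monocytes after LPS (log2 difference -0.57, SE 0.13, edgeR adjusted p = 7.65e-04). Tgfbr2 was lower in microglia than in endothelial cells (log2 difference -1.20, SE 0.13, edgeR adjusted p = 4.56e-20). Tgfbr1 and Itgb5 remained higher in microglia than in macrophages (1.06 and 1.54 on the log2 scale), and 7 of the 10 members were higher in microglia than in macrophages and 0 lower, beside 23.7% and 17.7% of all genes.

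**Figure D3:**
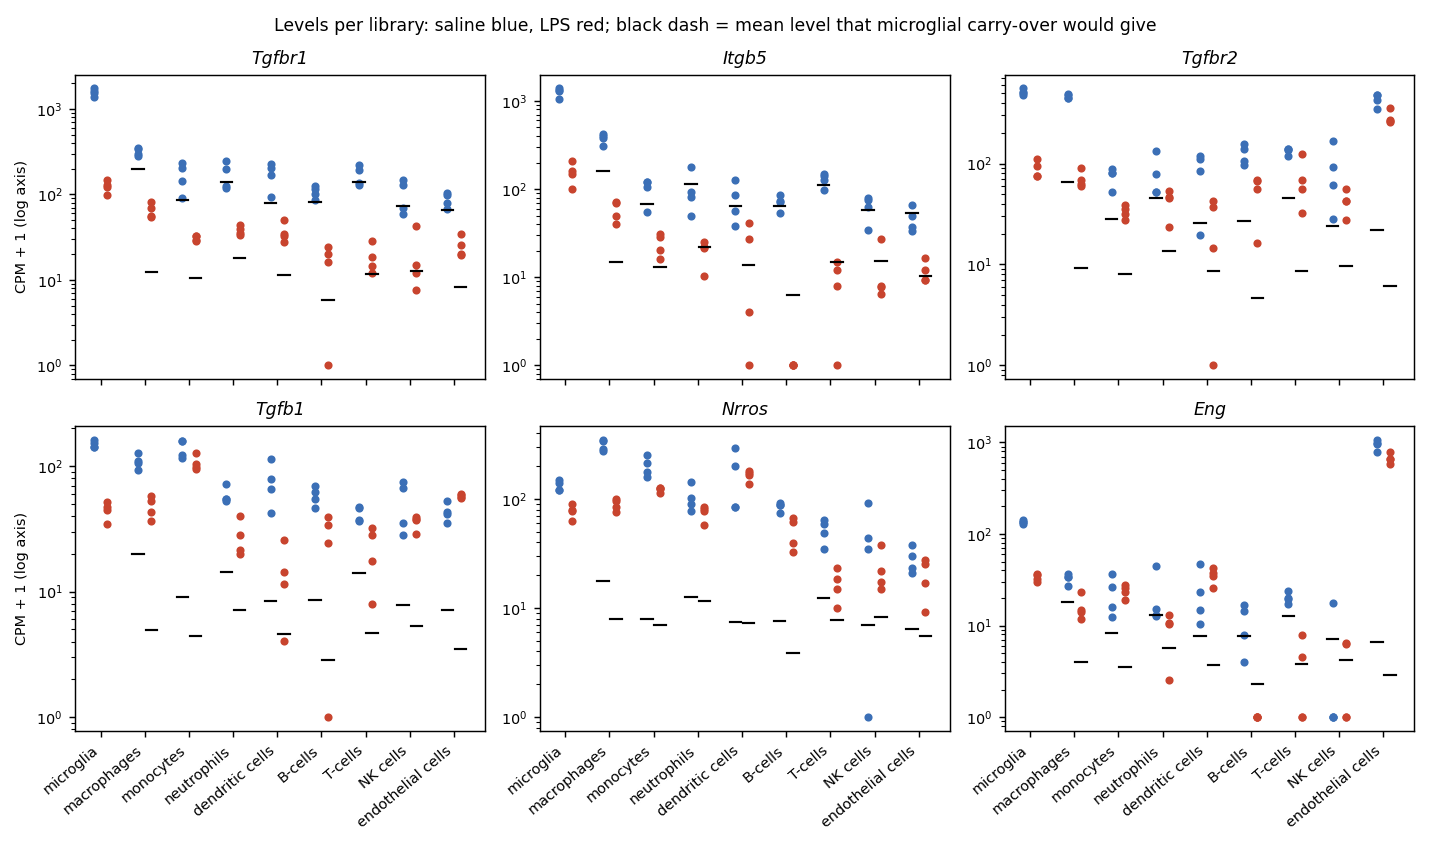
CPM plus 1 on a log axis for 6 members in 9 cell types, each point 1 library (saline blue, LPS red), with a black dash at the mean level that RNA carried over from microglia would give in that type. In saline B-cells Tgfbr1 lies at a mean of 106 CPM beside a dash at 80.1 CPM, whereas Nrros in saline macrophages (313 CPM, dash at 16.6 CPM) and Eng in saline endothelial cells (946 CPM, dash at 5.54 CPM) stand far above it.

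The dissociation condition was compared in the same fits. In microglia, 0 of the 10 members passed the edgeR test of DMSO against inhibitors at an adjusted p under 0.05, where 0.349% of genes did, and DESeq2 called 0 as well. The 95% intervals of the 10 log2 fold changes lay within -0.44 to 0.64. Smad7 had an unadjusted p under 0.05: DMSO libraries held 139, 114, 29.3 and 23.4 CPM and inhibitor libraries 112, 88.7, 23.02 and 14.5 CPM, in each case saline before LPS (log2 fold change 0.38, SE 0.12, 95% interval 0.13 to 0.64, edgeR unadjusted p = 0.00625, adjusted p = 0.720, 1 of 10 members with such a p). In the 8 other types 0 members passed as well, with DESeq2 too. The share of all genes called there was 0.519% in macrophages, 0.0549% in monocytes, 0.559% in neutrophils, 0.731% in dendritic cells, 0.182% in B-cells, 0.293% in T-cells, 0.54% in NK cells and 0.0297% in endothelial cells. Among the members, 2 pairs of member and type had an unadjusted p under 0.05 (Eng in monocytes and Itgb5 in endothelial cells). The LPS change itself was compared between DMSO and inhibitor libraries. In microglia 0 of 10 members passed (0 with an unadjusted p under 0.05) beside 0.0224% of all genes, and in the other types 0 passed, where the share of all genes called was 0.0182% in macrophages, 0.0157% in monocytes, 0% in neutrophils, 0% in dendritic cells, 0.026% in B-cells, 0.0391% in T-cells, 0% in NK cells and 0.00991% in endothelial cells, and 2 had an unadjusted p under 0.05 (Itgav in neutrophils and Itgb5 in dendritic cells), with DESeq2 calling 0 throughout. With 2 libraries per combination these intervals are wide, for Tgfbr1 -0.75 to 0.56 on the log2 scale.

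**Figure D4:**
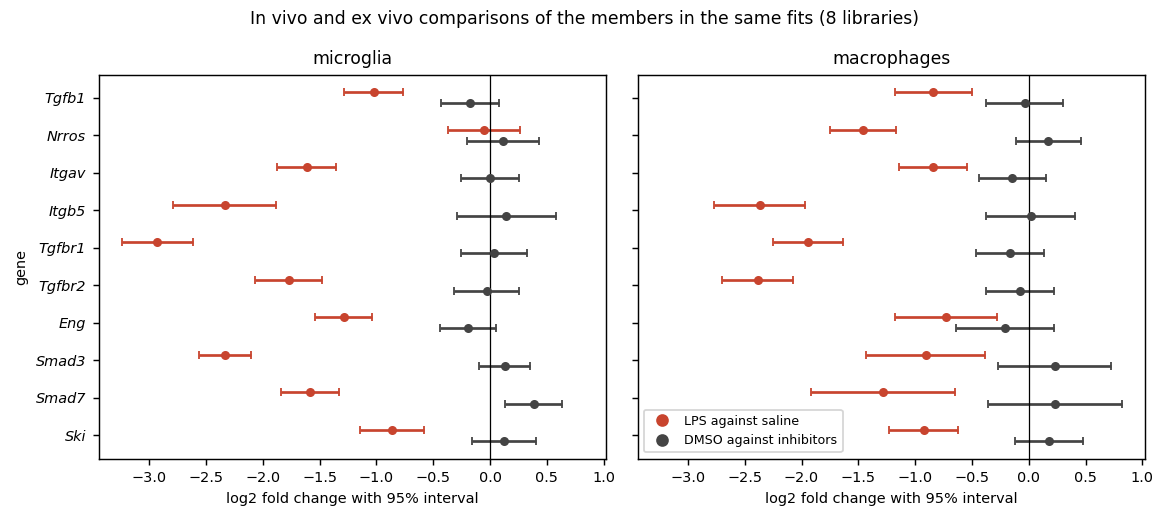
Log2 fold changes with 95% intervals for the 10 members in microglia (left) and macrophages (right), LPS against saline in red and DMSO against inhibitors in grey, from the same fits of 8 libraries. In microglia the red intervals of 9 members lie left of 0, Nrros spans 0, and the grey points lie between -0.20 (Eng) and 0.38 (Smad7).

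The members were then set in the wider pathway, in 6 lists that hold 59 further genes. In microglia 26 of these fell and 11 rose (44.1% and 18.6%, beside 31.9% and 27.7% of all genes), with a median log2 fold change of -0.21, close to that of all genes. These counts include held-out microglial genes (Gpr34, Olfml3, Sall1, Siglech and Golm1), all of which fell. Without them 21 of 54 fell and 11 rose, with a median of -0.17. The lists were chosen with earlier results of these data known, so these counts are a description. With library totals in place of TMM, 46 fell and 7 rose, where 14930 of the 22337 genes tested were lower and 2886 higher. Of 14 genes of ligands and latency 6 fell. The most negative were Ltbp4 (-2.16) and Ltbp1 (-0.78), which bind latent TGF-beta to the matrix, and Itgb8 (-0.94), another alpha-v partner that activates it. Mmp14, a membrane metalloprotease, rose from 40.5 ± 1.64 to 356 ± 88.8 CPM (log2 fold change 3.87, SE 0.19, edgeR adjusted p = 2.62e-09). Of 9 other receptors of the family 6 fell, led by Bmpr2 (-1.44), Acvr1 (-1.36) and Acvr2b (-1.03), and Acvr1b rose (0.75) with TMM but stood at -0.011 with library totals.

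None of the 6 other Smads passed the edgeR test (0 with an unadjusted p under 0.05), and DESeq2 called 0. Smad2, which TGFBR1 activates beside Smad3, went from 50.3 ± 4.77 to 29.1 ± 2.52 CPM (log2 fold change -0.029, SE 0.094, edgeR adjusted p = 0.805), and the shared partner Smad4 from 32.4 ± 5.77 to 18.3 ± 1.18 CPM (log2 fold change -0.057, SE 0.10, edgeR adjusted p = 0.642). The 6 had log2 fold changes between -0.45 and -0.029 with TMM, -0.32 to 0.087 with DESeq2, and -1.21 to -0.79 with library totals. On the last scale all 6 passed, as did Nrros and 79.8% of all genes. Smad3, by comparison, had -2.33. Regulators of receptors and Smads moved both ways, with 5 lower (Tgif2 -2.61, Trim33 -1.18 and Nedd4l -0.79 first) and 4 higher (Fkbp1a 1.30, Strap 1.18 and Tgif1 1.10 first) of 14, and Tgif1 did not pass with library totals.

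The 10 genes listed as targets split as well, where 31.9% of all genes were lower and 27.7% higher. Pmepa1 and Ldlrad4, both induced by TGF-beta and both limiting its signal, fell (log2 fold change -1.47, SE 0.13, edgeR adjusted p = 6.30e-07, and log2 fold change -2.54, SE 0.12, edgeR adjusted p = 2.12e-09), Pmepa1 from 613 ± 27.9 to 133 ± 19.5 CPM and Ldlrad4 from 279 ± 17.1 to 28.4 ± 4.43 CPM, and Cdkn2b, a cell cycle inhibitor with about 1 CPM or less, fell too (-2.52). Id2, a repressor of helix-loop-helix factors, rose from 42.6 ± 10.2 to 496 ± 155 CPM (log2 fold change 4.29, SE 0.20, edgeR adjusted p = 2.17e-09), and Tgfbi, a secreted matrix protein, from 46.97 ± 5.15 to 465 ± 32.4 CPM (log2 fold change 4.06, SE 0.15, edgeR adjusted p = 4.34e-10). Id1 (1.34) and Ccn2 (1.32, under 1 CPM in every library), named although the rule did not choose them, rose too. Many of these genes respond to other signals. All 6 genes that microglia are known to express under the control of TGF-beta fell, with Gpr34 (-6.39), Olfml3 (-3.70) and Sall1 (-2.37) in front of Siglech, Golm1 and Mertk. These lists were chosen with earlier results of these data known, so the count of 6 is a description and not a test.

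In the other types fewer of the further genes could be tested, and the counts by edgeR are given with the shares of all genes that were lower and higher there. Of these genes 15 of 44 fell and 8 rose in macrophages (25.1% and 24.3%), 17 of 49 fell and 8 rose in monocytes (13.9% and 14.5%), 8 of 32 fell and 5 rose in neutrophils (12.4% and 11.6%) and 6 of 15 fell and 7 rose in dendritic cells (16.7% and 19.9%). Only in dendritic cells, at 0.63, and in neutrophils, at 0.014, was their median log2 fold change above 0. In lymphocytes 3 of 11 fell and 0 rose in B-cells (4.57% and 3.22%), 9 of 25 fell and 1 rose in T-cells (10.3% and 9.63%) and 4 of 7 fell and 1 rose in NK cells (11.6% and 12.6%). In vessels 13 of 50 fell and 14 rose in endothelial cells (20.9% and 20.2%). The shares of all genes depend on the scaling. With library totals the calls over all genes were 1554 higher and 4624 lower in macrophages, 581 higher and 1161 lower in neutrophils, 489 higher and 612 lower in dendritic cells, 114 higher and 254 lower in B-cells, 255 higher and 759 lower in T-cells and 1418 higher and 2913 lower in endothelial cells, which lowered the part of calls that were higher by over 10 percentage points in each, in macrophages from 49.1% to 25.2%. The counts of further genes in these types were not recomputed with library totals. The counts of further genes given above with TMM include up to 5 of the held-out microglial genes by which carry-over was measured (Gpr34, Olfml3, Sall1, Siglech and Golm1), which fell in microglia. Without them the genes that fell were 10 of 39 in macrophages, 12 of 44 in monocytes, 4 of 27 in neutrophils, 4 of 13 in dendritic cells, 0 of 8 in B-cells, 4 of 20 in T-cells, 1 of 4 in NK cells and 8 of 45 in endothelial cells, and the part of carry-over in these was not tested.

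The genes most like each member were sought over 64 pairs of library and immune cell type by Pearson's r of log2(CPM + 1), among 6536 genes with a mean of at least 20 CPM. The pairs share libraries and cell types, and r is given as a description. Tgfbr1 was most like P2ry12 (r = 0.946), a microglial gate gene, then Olfml3 (0.916) and Fcrls (0.904). Itgb5 was most like Fcrls (0.914), Olfml3 (0.902) and P2ry12 (0.898), the same 3 genes. Itgav and Ski were most like each other (0.913), with Tmem119 and Vrk2 after Ski for Itgav and Vsir and Tmem119 after Itgav for Ski. Fcrls and Tmem119 are microglial gate genes as well, and Olfml3 is a held-out gene by which carry-over was measured. The pairs span saline and LPS libraries, so a shared high level in microglia and a shared change after LPS can both enter the values of r with these genes. The part of each, and of carry-over, in these values was not tested. Tgfbr2 was most like Rnase4 (0.873), Selenop and Man1a, and Nrros like Cltc (0.869), Sav1 and Cherp. For Eng these were Sowahc (0.852), Nckap1l and Cdc42bpb, for Smad3 Lonp2 (0.856), Wls and Bin2, for Tgfb1 Rap1gds1 (0.802), Elmo1 and Runx1, and for Smad7, with the lowest values, Gal3st4 (0.697), Nav2 and Exoc4.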

How the data were processed

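CD45+ cells from 8 mouse brains were profiled as 8 PIPseq libraries, 1 mouse each. The authors aligned reads with STAR within PIPseeker to GRCm39 with a GENCODE annotation and deposited raw UMI counts per gene and barcode, unfiltered and not normalized, for 32227 genes. The submitters' notes also name Seurat 4, which made no values used here.

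Here, cells were kept with at least 800 and under 45000 UMIs, at least 250 and under 6500 genes and under 5% mitochondrial counts. A cell was placed in a type when at least 2 markers and 3 UMIs of it were present beyond free RNA (Poisson p under 0.001) with a margin of 2 over other types, and cells with mixed markers were left out. Doublets were otherwise kept, and in an alternative the top 8% by Scrublet score were removed. UMIs were summed per library and type (at least 10 cells), since cells are not replicates. Counts were tested with the edgeR 4.0.16 quasi-likelihood test in R 4.3.3 (filterByExpr, TMM, in vivo and ex vivo terms), adjusted by Benjamini-Hochberg over all genes tested in that type and called at an adjusted p under 0.05. Comparisons between types had the mouse as a block. Total UMIs per library ran from 90352359 to 141182123, and counting error is smallest in microglia. Alternatives, DESeq2 1.42.0 among them, stand at the end. On simulated counts for microglia (22337 genes) the test recovered 57% of genes changed by 1 on the log2 scale and 99% of those changed by 2, and for dendritic cells (3009 genes) 48.9% and 96.6%. Few genes were changed there (93 by 1 and 97 by 2 in microglia), evenly up and down, with no other shift in composition. In the real microglia 59.6% of genes were called, so these rates do not cover the scaling on which Nrros depended.

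Carry-over is the level of 6 held-out microglial genes in a type, as a share of their level in microglia of the same library, times the microglial CPM of the member. It takes all RNA of these 6 genes in the type as carried over, with the makeup of gated microglia. Free RNA differed from that makeup. It held 984 CPM of Tgfbr1 after saline and 154 CPM after LPS, beside 1572 and 122.5 CPM in microglia. Replicate numbers mark the capture batch in the labels, so same-numbered libraries share a batch: correlations of their deviations from group means lay between 0.060 and 0.488. The labels name separate mice, and with 2 mice per combination p-values rest on small groups.

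The members and lists were chosen with earlier results of these data known. Named were all members, and of each pathway list up to 3 genes with the largest change in each direction among those called. Smad2, Smad4, Siglech, Golm1, Mertk, Id1 and Ccn2 are named outside this rule. A gene of these lists is counted but not reported here by name. Sequences come from RefSeq promoters on GRCm38.p6, another build than that of the counts, and no coordinates were converted. Smad7 had no entry.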

Additional observations from a re-analysis of the deposited data

Results flagged for a closer look

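Among 180 groups of 4 libraries (10 members in 9 types by saline or LPS), 16 held a library whose gap to the nearest other, divided by the range, was over Dixon's 95% critical value. Chance gives about 1 in 20. Tgfb1 was at 70.6 CPM (saline with inhibitors, replicate 1, the others 51.4 to 54.1) in neutrophils and at 27.9 CPM (LPS with DMSO, replicate 2, the others 36.5 to 38.2) in NK cells. Itgav was at 46.5 CPM (LPS with inhibitors, replicate 1, the others 32.2 to 34.1) in macrophages, at 15.7 CPM (LPS with inhibitors, replicate 2, the others 0 to 0) in B-cells and at 31.3 CPM (LPS with inhibitors, replicate 1, the others 10.9 to 13.95) in NK cells, and Itgb5 at 26.1 CPM (LPS with inhibitors, replicate 1, the others 5.46 to 6.97) in NK cells. Tgfbr2 was at 117 CPM (saline with DMSO, replicate 1, the others 136 to 139) in T-cells and at 351 CPM (LPS with DMSO, replicate 1, the others 258 to 267) in endothelial cells. Eng was at 44.1 CPM (saline with inhibitors, replicate 1, the others 11.6 to 14.3) in neutrophils and at 16.6 CPM (saline with inhibitors, replicate 1, the others 0 to 0) in NK cells. Smad3 was at 14.7 CPM (LPS with DMSO, replicate 2, the others 9.91 to 10.7) in macrophages, at 19.2 CPM (LPS with DMSO, replicate 1, the others 0 to 0) in B-cells and at 40.7 CPM (saline with DMSO, replicate 1, the others 22.7 to 24.9) in T-cells. Ski was at 54.6 CPM (LPS with inhibitors, replicate 1, the others 39.7 to 41.98) in monocytes, at 15.7 CPM (LPS with inhibitors, replicate 2, the others 0 to 0) in B-cells and at 41.8 CPM (LPS with inhibitors, replicate 1, the others 6.97 to 10.9) in NK cells. None of these groups was microglia, and those in B-cells and NK cells rest on few UMIs.

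The LPS change of 20 pairs of member and type differed from that of microglia by the edgeR test of the difference (microglia minus the other type, log2). Against macrophages the values were 1.44 for Nrros and 0.63 for Tgfbr2, which fell more in macrophages, and -0.74 for Itgav, -0.97 for Tgfbr1, -0.55 for Eng and -1.40 for Smad3. Against monocytes they were -0.99 for Tgfb1, -1.49 for Itgav, -0.90 for Tgfbr1, -0.97 for Tgfbr2, -1.78 for Eng, -2.40 for Smad3 and -1.01 for Smad7. Against neutrophils they were -1.27 for Tgfbr1, -1.45 for Tgfbr2, -1.77 for Smad3 and -0.79 for Ski. Against dendritic cells they were -1.63 for Itgav, -1.23 for Tgfbr1 and -2.51 for Eng.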

How the results depend on the processing

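Of 8215 values of single genes under alternative settings, 7992 kept direction and side of the threshold, 173 lost and 46 gained a call, and 4 turned direction. Values that could no longer be tested are not among them, such as 9 calls in other types after subtraction of free RNA. Fits without 1 library share all other libraries with the main fit, so the settings are not independent of each other. In microglia the count of 9 members held under each alternative except a log2 fold change over 2 (3 members) and library totals without TMM (10, with Nrros), the latter chosen after seeing the data. The 38 pairs in other types became 17 with free RNA subtracted (50 pairs tested), 19 with DMSO libraries only and 14 with a log2 fold change over 2, and the 37 further pathway genes became 10 under that threshold. Values that turned direction were Acvr1b in microglia with library totals (-0.011), the LPS change of Itgb5 in microglia against macrophages with library totals (-0.33, edgeR adjusted p = 0.0352, from 0.059), and Eng (0.75) and Smad7 (0.52) in macrophages with free RNA subtracted. The cause was not tested. Without single libraries the counts ranged over 9 to 9 in microglia, 31 to 36 in other types, 17 to 21 of differences from microglia, 129 to 133 of levels and 32 to 37 of pathway genes, and stayed at 0 for the dissociation. With the replicate block, 9 members were called in microglia and 39 pairs in other types, the addition being Tgfbr2 in endothelial cells (-0.37), and no other call changed. Library totals without TMM gave 40 pairs in other types, 26 differences from microglia and 53 pathway genes, where 79.8% of all genes in microglia were called. Few UMIs limit dendritic cells and lymphocytes, where 132 B-cells came from LPS libraries. One library per mouse and 2 mice per combination limit the comparison of dissociation conditions.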

Other observations

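Fits were made for 9 types, and levels in 3 others, chosen after their values were seen, are given as values without a test. In fibroblasts, matrix-forming cells of the brain's borders (221 cells), Tgfbr2 stood at 278 ± 99.3 CPM after saline and 393 ± 46.9 CPM after LPS (mean ± SD, n = 4 libraries), and after LPS this was the highest mean of Tgfbr2 in any type, with libraries that overlapped with endothelial cells. Smad7 in fibroblasts was at 58.6 ± 29.1 and 72.7 ± 32.4 CPM, with a wide spread. Smad3 in ependymal cells, the lining of the ventricles (409 cells), was at 35.6 ± 15.95 CPM after saline and 96.2 ± 17.03 CPM after LPS (n = 3 libraries with at least 10 such cells, since 1 LPS library held fewer), and Ski at 136 ± 5.45 and 143 ± 45.3 CPM. In mural cells, the contractile cells around vessels (362 cells), Eng was at 199 ± 87.3 and 140.1 ± 8.62 CPM and Itgb5 at 257 ± 83.6 and 140.4 ± 27.6 CPM. Microglial carry-over was not subtracted from these values. In mural cells it would give 94.6 CPM of Itgb5 after saline and 13.5 CPM after LPS, and 9.94 and 2.68 CPM of Eng. Endothelial cells held 946 CPM of Eng after saline and 671 CPM after LPS, and the part of endothelial RNA in the mural values was not tested.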
